A study of Mus musculus with 6 samples.

Results

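Hmgn2, its intron-less genomic copies and its paralogs were followed through 6 RNA sequencing libraries of mouse lung ILC2s. The rows were taken by gene name: Hmgn2, the copies Gm10182, Gm10282, Gm6594 and Gm7125, and the paralogs Hmgn1 and Hmgn3. All 7 are among the 18478 genes of the deposited count table. ILC2s, group 2 innate lymphoid cells, are lymphocytes of tissues such as the lung that lack rearranged antigen receptors and secrete type 2 cytokines. They were sorted from lungs of 6-week-old BALB/c mice, either WT or CB2 KO, with 3 libraries per group. CB2 is the cannabinoid receptor encoded by Cnr2, and the series asks how its loss affects the ILC2 transcriptome. In both groups IL-33 was given to the mice through the nose 3 times, at 1 µg of the recombinant protein, and the sorted cells were then cultured for 24 h in IL-2 (10 ng/mL) plus IL-7 (10 ng/mL). The labels give the same strain for both groups and do not describe how the knockout allele was made. The labels leave out whether each library stands for its own mouse, so every p-value and error here reflects the variation among these libraries alone, and that variation may be technical.

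HMGN proteins are small, highly charged chromatin proteins that bind the nucleosome core through a conserved nucleosome-binding domain. They compete with linker histone H1 for nucleosomes and are found at enhancers and promoters of active genes. Hmgn2 and Hmgn1 are the broadly expressed members in lymphocytes, and Hmgn3 and Hmgn5 are more restricted. Short, abundant messages of this kind have often been copied back into mammalian genomes by reverse transcription, which leaves intron-less copies that can differ from the parent gene by a few bases or by none.

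The sequences come first, because they set which reads can be told apart. Hmgn2 lies on chromosome 4 (133964738 to 133968650, minus strand, mm10), 1.9 Mb from Cnr2, and its coding sequence is spread over several exons. In GENCODE release M21 its shorter coding form has 273 nt, stop codon included, and its longer coding form 279 nt. The 6 extra bases of the longer form are in capitals in this stretch of it, from coding position 75 to 110:
Hmgn2 longer form: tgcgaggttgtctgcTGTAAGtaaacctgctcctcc
Gm10182, a processed pseudogene of a single exon (chromosome 9, 22321105 to 22321377, minus strand), is 273 nt long and identical to the shorter coding sequence, with 0 substitutions. Gm10282, a single-exon retrocopy annotated as protein coding (chromosome 8, 72304110 to 72305260, minus strand), also has a coding sequence with 0 substitutions against the shorter Hmgn2 form. Over its whole length it matched the Hmgn2 transcript with that form along 1151 nt at 99.3% identity, with 6 substitutions, all outside the coding sequence.

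Gm6594 and Gm7125 are different in that their copies do carry changes within the coding sequence. Gm6594 is a processed pseudogene of a single exon. Gm7125 is annotated as a lincRNA (chromosome 15, 68792320 to 68883576, plus strand), of which 1 transcript of 273 nt is the Hmgn2 copy. A search of all annotated transcripts for matches of at least 200 nt at 85% identity or more found 29 genes besides Hmgn2, of which 8 are in the count table: the 4 listed copies and Gm20379, Hmgn2-ps1, Gm6750 and Gm3338. Gm20379 (chromosome 13, 92305980 to 92307183, plus strand) is shown with Gm7125 because its counts took the same form. In both copies capitals mark a base that differs from Hmgn2 or has no partner in it:
Hmgn2 shorter form: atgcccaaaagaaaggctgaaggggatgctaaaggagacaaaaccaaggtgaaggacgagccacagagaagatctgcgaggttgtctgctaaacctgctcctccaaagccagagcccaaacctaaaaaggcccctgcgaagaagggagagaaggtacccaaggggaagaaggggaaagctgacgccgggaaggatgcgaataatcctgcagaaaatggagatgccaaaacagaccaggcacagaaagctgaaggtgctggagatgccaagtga
Gm7125: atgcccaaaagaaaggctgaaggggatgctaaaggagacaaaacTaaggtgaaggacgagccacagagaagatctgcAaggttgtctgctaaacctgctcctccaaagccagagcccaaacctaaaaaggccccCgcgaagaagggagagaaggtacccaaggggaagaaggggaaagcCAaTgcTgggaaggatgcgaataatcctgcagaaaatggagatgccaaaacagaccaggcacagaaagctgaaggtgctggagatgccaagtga
Gm20379: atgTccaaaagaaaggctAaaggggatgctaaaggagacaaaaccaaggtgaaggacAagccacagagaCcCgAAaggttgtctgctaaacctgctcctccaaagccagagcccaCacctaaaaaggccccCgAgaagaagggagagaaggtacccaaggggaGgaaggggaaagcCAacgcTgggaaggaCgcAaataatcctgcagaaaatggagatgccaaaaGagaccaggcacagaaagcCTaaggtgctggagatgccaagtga

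Substitutions are written with the Hmgn2 base first, then the position counted from 1 at the A of the start codon, then the base of the copy. Gm7125 differs from Hmgn2 by 7 substitutions, and Gm20379 by 19 substitutions and 3 gap bases. Both copies have G78A, T135C, T180C, G181A and C186T, so that 5 of the 7 changes of Gm7125 are present in Gm20379 (71.4% of the former and 26.3% of the latter). Gm3338, with 11 substitutions, shares G58A, G78A, T180C and G198A with Gm20379, 36.4% of its own changes. Of these, G78A and T180C are also in Gm7125. It lacks T135C, G181A and C186T. Gm6750 has a single change, G136T. Hmgn2-ps1 is identical to the 279 nt form over its full length. The map of substitutions along the coding sequence shows these positions.

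**Figure D1:**
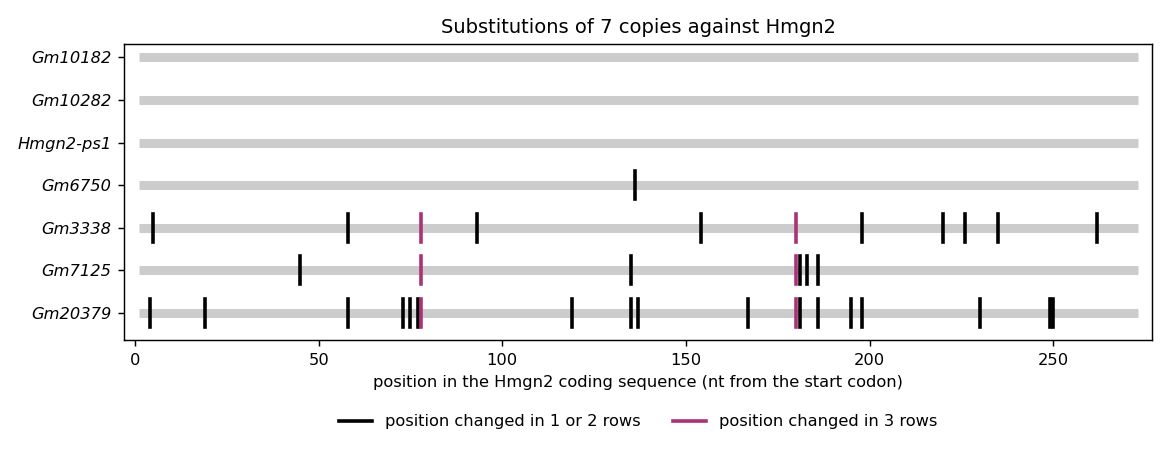
Positions, in nt from the start codon of the shorter Hmgn2 form, at which 7 of the 8 matching rows of the count table (all but Gm6594) differ from Hmgn2 by a substitution (vertical marks; insertions and deletions are not drawn). Gm10182, Gm10282 and Hmgn2-ps1 carry 0 marks, and the positions 78 and 180 are changed in 3 of the copies.

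Read length was not among the facts given in the sources used here, so windows of 50 and 75 bases were compared. All 224 windows of 50 bases in the Hmgn2 coding sequence, and all 199 windows of 75 bases, occur unchanged in Gm10182 and in Gm10282. Within Gm10182 itself, 100% of the windows of either length occur in Hmgn2 transcripts. For the Hmgn2 copies in Gm6594 and Gm7125 the share was lower, at 16.5% and 20.1% of 50-base windows and 6.6% and 6.5% of 75-base windows. For Gm20379 it was 0.8% and 0.0%. Of the windows of the Hmgn2 coding sequence, 0 of either length occur in Hmgn1 or Hmgn3. The authors' counts were estimated by expectation-maximization, which shares a read among the genes it fits, and 0 of the 6 values of each of Hmgn2, Gm10182 and Gm10282 lay within 0.01 of a whole number. The number was also 0 of 6 for Hmgn1, which holds none of the Hmgn2 windows, and it was 4 of 6 for Hmgn3, 1 of 6 for Gm6594 and 3 of 6 for Gm7125. By the windows they share, the counts of Hmgn2, Gm10182 and Gm10282 are uncertain as separate quantities. The windows of Gm6594, Gm7125 and Gm20379 were compared with Hmgn2 transcripts only. Whether they share windows with other copies was not examined, so their counts may be uncertain too.

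The genes were selected on the CB2 KO against WT contrast of these same libraries, in which Hmgn2 and Gm10182 pass the threshold. All values of the 7 genes in that contrast are therefore given as a description, with no p-value. Levels are CPM (the usual depth-scaled read count, here with TMM-scaled library sizes), given as mean ± SD with n = 3 per group, and log2 differences are CB2 KO minus WT from edgeR's quasi-likelihood model over all genes. The libraries held between 17141698 and 21621008 estimated counts each. All 15 ILC2 markers, among them Gata3 and Il1rl1, were above 10 CPM in every library. The summed level of 4 macrophage and monocyte markers was 12.1 to 59.2 CPM in WT, against 146 to 169 CPM in CB2 KO, that of 5 mast cell and basophil markers 16.0 to 28.3 and 38.1 to 81.3 CPM, and that of 4 T cell markers 11.2 to 17.5 and 28.0 to 32.4 CPM, and none of these 13 markers was at 0 in every library. Epithelial markers summed to 20.1 to 39.4 and 19.1 to 39.7 CPM, the endothelial marker in the table stood at 19.8 to 27.5 and 7.75 to 26.0 CPM, and the B cell marker in the table stayed under 1.2 CPM in WT and at 0 in CB2 KO. No marker of these lists passed the threshold. The part of such cells in the values below was not tested. In bulk samples, fewer cells of a type and less RNA per cell cannot be told apart. The library labelled CB2 KO replicate 1 had the lowest number of detected genes, 15005 with a count of 1 or more, where the others had 15640 to 16514. For the targeted gene it was level with the lowest WT library, while the other CB2 KO libraries were lower. Cnr2 was at 9.32, 17.4 and 15.8 CPM in WT replicates 1 to 3, against 9.24, 1.60 and 3.84 CPM in those labelled CB2 KO 1 to 3. It did not pass the threshold (log2 difference -1.52, SE 0.56, edgeR, Benjamini-Hochberg adjusted p = 0.514). Without the library labelled CB2 KO replicate 1 it did not pass either (log2 difference -2.42, edgeR, adjusted p = 0.486). A count over the whole of Cnr2 cannot locate a deletion within it.

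Hmgn2 was at 594, 600.3 and 562 CPM in WT replicates 1 to 3 and at 357, 359 and 364 CPM in CB2 KO replicates 1 to 3. Every CB2 KO library was below every WT library, and the CB2 KO libraries lay closer together than the WT ones. The means were 585 ± 20.4 and 359.9 ± 3.39 CPM, 38.5% lower in CB2 KO, with a log2 difference of -0.70 (SE 0.06). Gm10182, the copy identical to the Hmgn2 coding sequence, was at 120.4, 129 and 126 CPM in WT and at 42.2, 35.1 and 35.5 CPM in CB2 KO. Its means of 125 ± 4.52 and 37.6 ± 3.99 CPM differed by 70.0%, with a log2 difference of -1.73 (SE 0.14), and its groups did not overlap either. The relative difference of Gm10182 was thus larger than that of Hmgn2, although every window of its sequence also occurs in Hmgn2.

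Gm10282, whose coding sequence is equally identical to that of Hmgn2, stood on the other side. It was at 176, 165 and 162 CPM in WT and at 228, 243 and 256 CPM in CB2 KO. All 3 CB2 KO values were higher than all 3 WT values. The means were 168 ± 7.53 and 242 ± 13.7 CPM, 1.45-fold higher in CB2 KO, with a log2 difference of 0.53 (SE 0.09).

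Gm6594 and Gm7125 were close to or at 0 in WT and present in every CB2 KO library. Gm6594 had 1.10, 0 and 1.11 estimated counts in WT replicates 1 to 3 and 362, 395 and 311 in CB2 KO replicates 1 to 3. In CPM the CB2 KO libraries lay between 18.0 and 18.6. With 2.21 estimated counts over the 3 WT libraries against 1067 over the 3 CB2 KO libraries, the ratio was 493. So few WT counts do not set its size well. Gm7125 had 0 counts in each WT library and 294, 278 and 204 in CB2 KO, or 14.6, 13.1 and 11.9 CPM. With 3 counts over the whole WT group put in place of the 0, the ratio was 264. This is not a bound, because a 0 estimated by expectation-maximization does not exclude reads that also fit other genes. Both genes passed the filter on low counts only through the CB2 KO libraries. These ratios are descriptions. They leave out the spread between libraries and the error of sharing reads among similar genes.

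Gm20379, which shares 5 changes with Gm7125, took the same form. It had 1, 1 and 0 estimated counts in WT and 120.1, 122 and 120.1 in CB2 KO. The ratio was 185, a size that so few WT counts do not set well. It too passed the filter only through the CB2 KO libraries and was singled out after its values were seen, so its values are a description. Hmgn2-ps1, which has none of these changes, was at 0.13, 3.44 and 2.92 CPM in WT against 0.39, 1.57 and 1.11 CPM in CB2 KO, and its groups overlapped. Gm6750 stayed below 0.6 CPM and Gm3338 below 0.2 CPM in every library, and neither passed the filter on low counts.

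**Figure D2:**
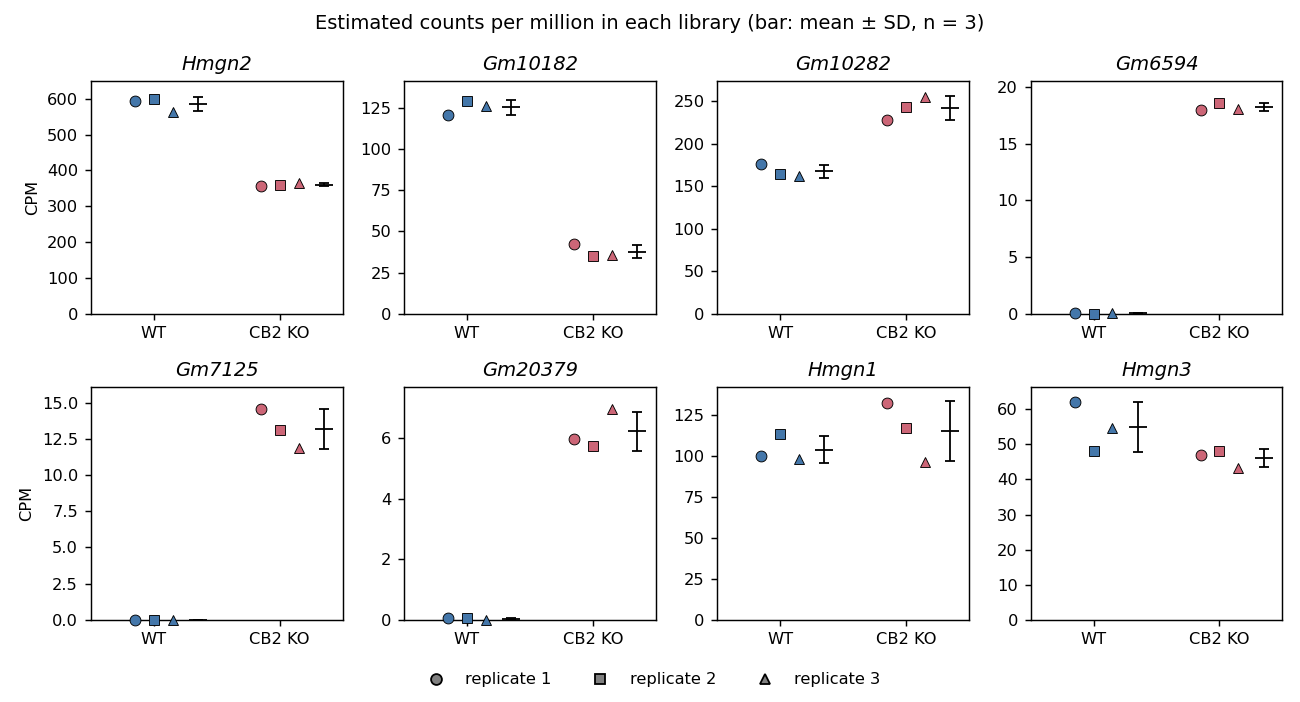
CPM in each library for Hmgn2, its copies and its paralogs, on linear axes that start at 0, with 1 panel per gene, points for the libraries and a bar for mean ± SD (n = 3). Hmgn2 and Gm10182 are lower in all 3 CB2 KO libraries, Gm10282, Gm6594, Gm7125 and Gm20379 are higher in all 3, and Hmgn1 and Hmgn3 overlap between groups.

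Of the 7 genes, 2 passed the threshold of 0.05 over all genes in edgeR's test, Hmgn2 and Gm10182, both lower in CB2 KO. Of all 14084 tested genes 0.107% did so in either direction, 0.0426% as higher and 0.0639% as lower in CB2 KO. The groups of 5 of the 7 did not overlap, 2 lower and 3 higher in CB2 KO, beside 14.1% of all tested genes. Nothing is read from either count, because this contrast chose the genes, and Gm6594 and Gm7125 passed the filter only through the libraries in which they are high. With the library labelled CB2 KO replicate 1 left out, the number past the threshold was still 2. Leaving out any other single library, WT or CB2 KO, brought it to 0, while the log2 difference kept between -0.73 and -0.68 for Hmgn2 and between -1.83 and -1.68 for Gm10182 in all 16 alternatives that kept the rows apart.

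Taken as 1 pool, Hmgn2 and its 4 listed copies differed less between the groups than Hmgn2 alone. Their summed level was 891, 894 and 851 CPM in WT and 660.3, 669 and 685 CPM in CB2 KO, with no overlap. The means were 879 ± 24.3 and 671 ± 12.4 CPM, 23.6% lower in CB2 KO. Fitted as a single feature, the sum had a log2 difference of -0.39, against -0.70 for Hmgn2 as its own row, and was not past the threshold. With the 4 further matching rows added, an alternative chosen after the data had been seen, it was -0.38. The difference of mean levels, CB2 KO minus WT, was -226 CPM for Hmgn2 and -87.7 CPM for Gm10182, against 74.7 CPM for Gm10282, 18.2 CPM for Gm6594, 13.2 CPM for Gm7125 and 6.20 CPM for Gm20379. The rows Gm6594, Gm7125 and Gm20379 summed to 0.10, 0.05 and 0.06 CPM in WT and 38.5, 37.5 and 36.9 CPM in CB2 KO.

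The division of the pool also differed between the groups. Hmgn2 held 66.7%, 67.1% and 66.1% of the estimated counts of the 5 rows in WT and 54.1%, 53.6% and 53.1% in CB2 KO. The share of Gm10182 was 14.3% ± 0.68 in WT and 5.61% ± 0.68 in CB2 KO. That of Gm10282 was 19.1% ± 0.69 and 36.1% ± 1.41. Gm6594 and Gm7125 took 2.71% ± 0.07 and 1.97% ± 0.24 of the pool in CB2 KO. In WT Gm7125 held 0% and Gm6594 at most 0.0074% in any library. The library labelled CB2 KO replicate 1 lay with the other CB2 KO libraries in all 5 shares. The rows were chosen on a contrast that included this library, so nothing about its label is read from this.

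**Figure D3:**
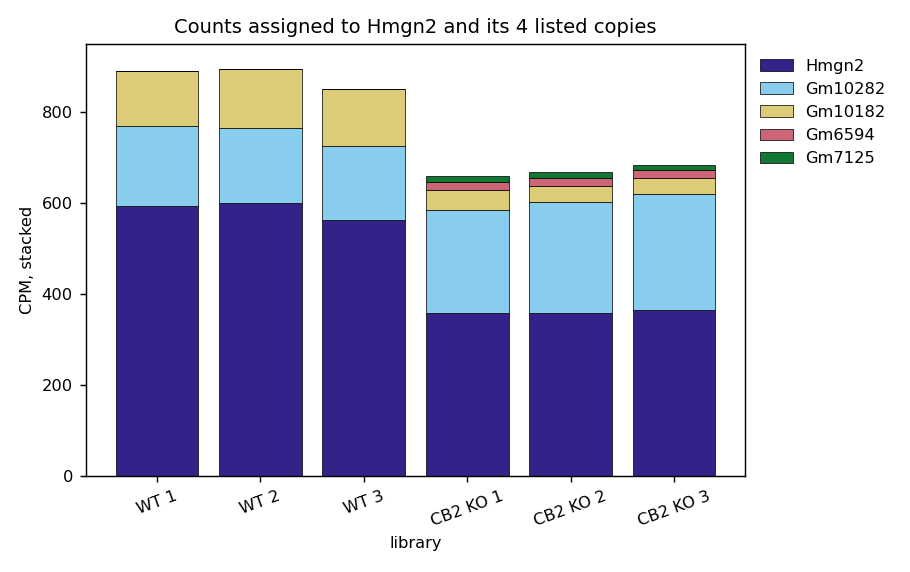
CPM of Hmgn2 and its 4 listed copies, stacked, in each of the 6 libraries. The stack reaches 851 to 894 CPM in WT and 660.3 to 685 CPM in CB2 KO, with a wider Gm10282 layer, a thinner Gm10182 layer and added Gm6594 and Gm7125 layers in CB2 KO.

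The paralogs did not share this form. Hmgn1 (chromosome 16, 96120618 to 96127729, minus strand) encodes the family member closest to Hmgn2 in its broad expression. It was at 100.2, 114 and 98.3 CPM in WT and at 133, 117 and 96.6 CPM in CB2 KO. The groups overlapped, and the log2 difference was 0.16 (SE 0.15). The library labelled CB2 KO replicate 1 held its highest value, and with that library left out the log2 difference was 0.05. It was 0.26 without CB2 KO replicate 3, and between 0.12 and 0.22 without any other single library. Hmgn3 (chromosome 9, 83109948 to 83146685, minus strand), a member known from endocrine and neural cells, was at 62.2, 48.1 and 54.6 CPM in WT and at 46.9, 48.2 and 43.1 CPM in CB2 KO. Its groups overlapped, with a log2 difference of -0.25 (SE 0.17), which was -0.15 without WT replicate 1. The remaining family gene in the table, Hmgn5 (chromosome X, 109004534 to 109013404, minus strand), was at 43.8, 49.4 and 56.1 CPM in WT and at 20.8, 40.1 and 36.8 CPM in CB2 KO. Its groups did not overlap, its lowest value came from the library labelled CB2 KO replicate 1, and it did not pass (log2 difference -0.60, SE 0.26, edgeR, Benjamini-Hochberg adjusted p = 0.588).

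Per length, Hmgn2 was the most abundant of the 3 listed HMGN family genes and Hmgn5 in every library. Per kilobase of annotated exon, the level of Hmgn2 was 191 ± 6.67 CPM in WT, against 118 ± 1.11 CPM in CB2 KO. Hmgn1 followed at 32.3 ± 2.58 and 35.8 ± 5.62 CPM per kilobase, Hmgn3 at 29.4 ± 3.76 and 24.7 ± 1.42, and Hmgn5 at 25.7 ± 3.21 and 16.8 ± 5.34. Hmgn1 and Hmgn3 overlapped in WT, as did Hmgn3 and Hmgn5, so their order there was within the spread between libraries. With the longest transcript as length neither pair overlapped in WT: Hmgn1 lay at 45.2 to 52.2 CPM per kilobase, Hmgn3 at 34.6 to 44.7 and Hmgn5 at 22.6 to 29.0. In CB2 KO every library had Hmgn1 above Hmgn3 and Hmgn3 above Hmgn5. For the copies the level per kilobase was 459 ± 16.5 in WT and 138 ± 14.6 in CB2 KO for Gm10182, and 146 ± 6.54 and 211 ± 11.9 for Gm10282. It was 63.7 ± 1.26 for Gm6594 and 8.86 ± 0.92 for Gm7125 in CB2 KO. The Gm7125 value uses 1489 nt of exon from 3 transcripts, of which only that of 273 nt is the Hmgn2 copy. Which of them its counts came from was not examined, so the level of the copy itself is not known. Gm10182 was thus above Hmgn2 per kilobase of exon in every library, on a length that holds only the coding sequence. The exon length of Hmgn2 includes retained introns, and with its longest protein coding transcript, a length chosen after the data had been seen, its level was 463 CPM per kilobase in WT and 285 in CB2 KO, level with Gm10182 in WT and above it in CB2 KO.

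**Figure D4:**
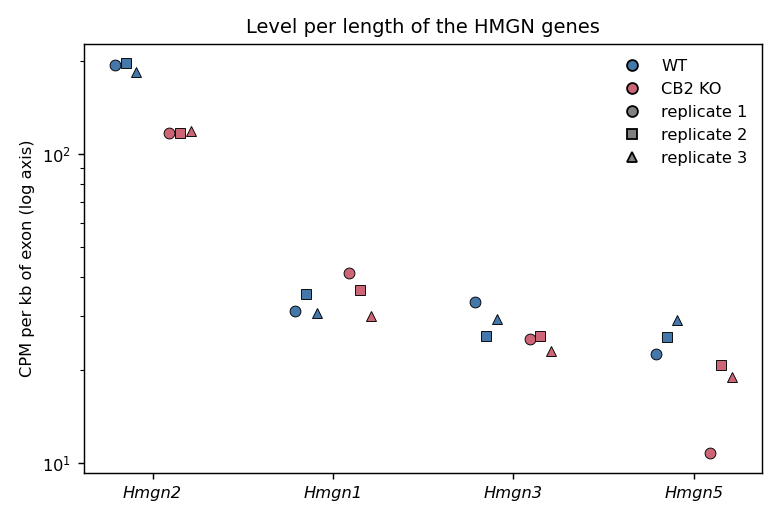
CPM per kilobase of annotated exon for Hmgn2, Hmgn1, Hmgn3 and Hmgn5 in each library, on a log axis, with 1 point per library. Hmgn2 lies at 117 to 196 CPM per kilobase, and all values of the other 3 genes lie at or below 41.2.

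Across the 6 libraries, 9241 tested genes with a mean of at least 10 CPM were ranked by Pearson's r of log2(CPM + 1) with Hmgn2. The 5 most alike were Cep85 (r = 0.999), Gm42031 (0.996), Hdac1 (0.995), Hmgb1 (0.995) and Sh3bgrl3 (0.993). Cep85, Hdac1 and Sh3bgrl3 are on chromosome 4, as is Hmgn2, and all 5 were lower in every CB2 KO library than in any WT library. The log2 differences of these chromosome 4 genes were -2.90, -1.03 and -0.81, against -0.70 for Hmgn2. Those of Gm42031 on chromosome 8 and Hmgb1 on chromosome 5 were -4.94 and -0.30. The distance of these chromosome 4 genes from Cnr2 was not examined. Gm10182 came 11th by this measure, with r = 0.990, and Gm10282 stood near the opposite end with r = -0.96. The values were 0.72 for Hmgn5, 0.71 for Hmgn3 and -0.42 for Hmgn1. These are descriptions over 6 points that share the group difference and the libraries.

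Other proteins of the nucleosome and of linker DNA were read from a list of 42 genes, of which 31 were in the table and all of these were tested. The linker histone genes Hist1h1a, Hist1h1b, Hist1h1c, Hist1h1d, Hist1h1e, Hist1h1t, H1fx, H1fnt and H1foo were not in it under these names. H1f0 was thus the only linker histone gene of the list that was read. None passed (0 of 31 with edgeR, Benjamini-Hochberg adjustment over the whole table), with 5 at an unadjusted p under 0.05, a level that 8.6% of all tested genes reached. DESeq2 called 3, all lower (H1f0, Hmgb1 and Hmgb2), beside 2.58% of the genes to which it gave an adjusted p, and limma-voom called 0. The log2 difference was below 0 for 22 of the 31 genes and above 0 for 9, with a median of -0.17, against a median of -0.0003 over all tested genes, of which 7047 were negative and 7037 positive. The groups did not overlap for 7 lower genes and 1 higher gene of the list, beside 7.18% lower and 6.88% higher among all tested genes.

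Hmgb2 and Hmgb1, which encode DNA-bending high mobility group B proteins, had the smallest p-values of the list, and the third gene of that kind in it, Hmgb3, had overlapping groups. Hmgb2 was at 715, 674 and 703 CPM in WT and at 564, 552 and 546 CPM in CB2 KO, a log2 difference of -0.33 (SE 0.05, edgeR with Benjamini-Hochberg adjustment, adjusted p = 0.110). Hmgb1 was at 447, 453 and 429 CPM in WT and at 357, 354 and 366 CPM in CB2 KO, a log2 difference of -0.30 (SE 0.06, edgeR, adjusted p = 0.230). The groups of both genes did not overlap, and neither passed. H1f0, which encodes a linker histone of the kind that HMGN proteins compete with, was at 253 ± 17.3 and 184 ± 26.3 CPM. Smarca4, the ATPase subunit of a chromatin remodelling complex, was at 212 ± 19.4 and 171 ± 15.9 CPM. Hmga1, which binds AT-rich DNA, was at 50.2 ± 2.48 and 45.7 ± 5.78 CPM with overlapping groups. Npm1, a histone chaperone, was the 1 gene of the list whose CB2 KO values all exceeded its WT values, at 258 ± 8.19 and 299 ± 24.2 CPM. H1f0, Smarca4, Hmga1 and Npm1 did not pass in edgeR's test.

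**Figure D5:**
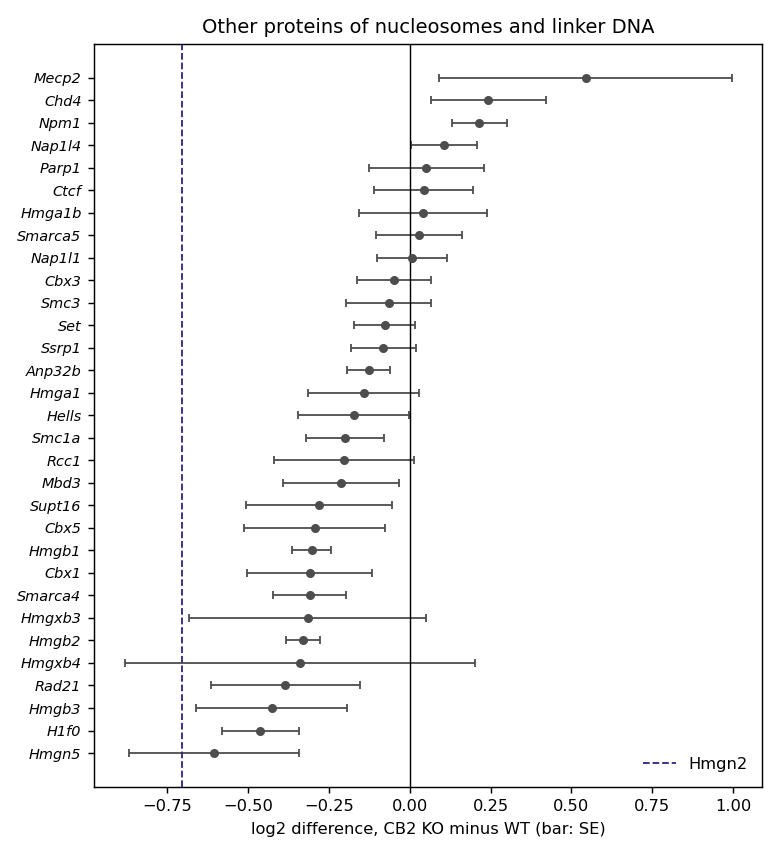
Log2 difference, CB2 KO minus WT, with its SE for the 31 tested genes of the list of other nucleosome and linker DNA proteins, ordered by value; the dashed line is Hmgn2 at -0.70. Of the genes 22 lie below 0 and 9 above, and none lies below Hmgn2.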

How the data were processed

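RNA was measured in 3 WT and 3 CB2 KO libraries, made from 10 ng of RNA per the labels' protocols. Groups and replicate numbers come from the sample titles. The deposited main table holds 1 estimated count per gene and library, from Partek's expectation-maximization quantification, per the file names. They also deposited a normalized signal, which by its values is (estimated count + 1) over a library-specific factor. CASAVA 1.8.2, Partek, mm10 and STAR (listed as 3.5.3) are named in the submitters' processing notes. Annotation and strand setting were not given in the sources used here; reads of antisense overlapping genes may therefore be mixed. The start positions of the 7 genes equal those of GENCODE release M21, and each deposited stop is 1 above its end.

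After rounding, the quasi-likelihood test of edgeR 4.0.16 under R 4.3.3 was run with TMM factors, the filter of filterByExpr, robust=TRUE in glmQLFit (legacy=FALSE), and Benjamini-Hochberg adjusted p under 0.05 as threshold. The filter left 14084 of 18478 genes, of which 6 were higher and 9 lower in CB2 KO. The SE is the log2 difference divided by the root of F. At these depths 3 counts correspond to 0.140 to 0.174 CPM. Transcripts were compared with blastn 2.17.0 and with local alignments in Biopython 1.88. The sequence of 1 copy, Gm6594, is not reported here. Alternatives used DESeq2 1.42.0, limma 3.58.1 on the counts (voom) and on log2 of the deposited signal, other scalings and filters, a replicate block, summed rows and leaving out each library. The edgeR workflow was tested on simulated data. The genes, the list and the tests were chosen with earlier results of these data known. The genes named were the 7 members, Cnr2, table rows matching Hmgn2 transcripts, the neighbours of each member, the 5 genes most like Hmgn2, and from the list the 4 smallest p-values with Hmgb1, Hmgb2, Hmgn5 and Hmga1. Npm1 was added after its values were seen. Markers of neutrophils, fibroblasts and NK cells, and some of other types, were not analysed here.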

Additional observations from a re-analysis of the deposited data

How the results depend on the processing

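The number of genes past the threshold was 15 with edgeR, 363 with DESeq2, 35 when genes had to average 100 counts or more, 3 with a replicate block, and 3 to 8 when 1 library was left out. Of the 7 members, 2 passed with edgeR, beside 0.107% of all tested genes, 5 with DESeq2 (all but Hmgn1 and Hmgn3), beside 2.58%, and 4 with limma on the authors' normalized values, beside 0.121%. With edgeR, 3 passed among genes averaging 100 counts or more, beside 0.333%, and 3 with legacy=TRUE, beside 0.0923%, Gm6594 being the added gene in both. That number was 0 with the replicate block, 0 when Hmgn2 and its listed copies were summed, 0 with all matching rows summed, and 0 to 2 when 1 library was left out. The list of other nucleosome and linker DNA proteins gave 0 with edgeR, 3 with DESeq2 and 0 to 0 when 1 library was left out. The cause of the differences between tools was not tested. Whether the replicate numbers pair the libraries is not known. Deviations of same-numbered libraries from their group means correlated at 0.04, 0.02 and 0.01. Those of differently numbered libraries correlated at -0.04 to 0.02. With so few libraries these values cannot settle the question. No log2 difference of a member changed sign under the 16 alternatives that kept the rows apart.

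With the longest transcript as length, levels per kilobase in WT and CB2 KO were 271 and 167 CPM for Hmgn2, 47.8 and 53.1 for Hmgn1, and 39.5 and 33.1 for Hmgn3. The level was 15.4 in CB2 KO for Gm7125, whose longest transcript, of 859 nt, is not the 273 nt copy. With the longest protein coding transcript, chosen after seeing the data, they were 463 and 285 for Hmgn2, 47.8 and 53.1 for Hmgn1, and 39.5 and 33.1 for Hmgn3. The WT values of Gm6594, Gm7125 and Gm20379 lay under the 0.140 to 0.174 CPM given above for the depth of these libraries. That range is not a detection limit, because a 0 estimated by expectation-maximization does not exclude reads that also fit other genes.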

Other observations

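The genes next to the members had values of their own. Dhdds, which encodes a subunit of dehydrodolichyl diphosphate synthase, lies 378 nt from Hmgn2 on chromosome 4 and was at 37.2, 55.4 and 45.9 CPM in WT and at 68.1, 71.5 and 66.7 CPM in CB2 KO. Its groups did not overlap, in the direction opposite to Hmgn2, and it did not pass (log2 difference 0.58, SE 0.18, edgeR with Benjamini-Hochberg adjustment, adjusted p = 0.452). Rps6ka1, the kinase gene on the other side of Hmgn2 at 76941 nt, was at 376, 363 and 323 CPM in WT. In CB2 KO it was at 315, 320 and 302 CPM. The means were 354 ± 27.6 and 312 ± 9.57 CPM. Its groups did not overlap either, in the same direction as Hmgn2, and it did not pass (log2 difference -0.18, SE 0.08, edgeR, adjusted p = 0.586). Zfp810, a zinc finger gene 13457 nt from Gm10182, was at 3.03, 2.49 and 9.28 CPM in WT and at 20.7, 11.1 and 13.0 CPM in CB2 KO, opposite in direction to Gm10182, with adjusted p = 0.454 by the same edgeR test. Klf2, 13773 nt from Gm10282, was at 3.01 ± 2.49 and 5.86 ± 1.54 CPM, and Khdrbs3, 44844 nt from Gm7125, at 0.52 ± 0.78 and 2.76 ± 1.84 CPM, with overlapping groups for both. Gm2065 and Gm29054, on the opposite strand within Hmgn3, stayed under 2 CPM in every library.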
